A study of Mus musculus with 27 samples.

Results

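A set of 30 genes of B lymphocyte identity and B cell receptor signalling was followed through 27 bulk RNA sequencing libraries of sorted mouse cells. The genes came from a list of symbols and are 30 of the 54446 genes in the count tables. Each was read as CPM (its count scaled to the library's reads in genes) in the 8 libraries with Ptprc, the gene of the leukocyte antigen CD45, above 100 CPM, and as residue in the other 19. The 19 were divided by the chemokine gene Ccl21a and the mesothelial gene Msln, to see which of the 30 genes also had reads in stroma.

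B lymphocytes recognise antigen through a membrane immunoglobulin that signals through the paired chains CD79A and CD79B. Kinases and adaptors such as BTK, BLK and BLNK carry the signal inward, the coreceptor CD21 amplifies it, and CD22, CD72 and SIGLEC-G restrain it. The transcription factors EBF1 and PAX5 set and keep the lineage. In NOD mice, which develop autoimmune diabetes, B cells are part of the islet infiltrate and can present antigen to T cells.

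The mice were 12 weeks old and were either NOD/ShiLtJ without a transgene (TG-) or Ins2-CCL21 NOD (TG+), in which an insulin promoter drives the chemokine CCL21 in beta cells. By label, 4 TG- and 4 TG+ libraries held CD45 cells of the islets, 2 and 2 held islet stroma high for gp38, and 4 and 4 held islet stroma low for gp38. Another 4 TG- and 3 TG+ libraries were labelled FRC, for the fibroblastic reticular cells that form the scaffold of lymph nodes. The protein gp38 is podoplanin, a surface protein of such stroma encoded by Pdpn. No label ties replicates to separate mice, so p-values measure the spread between these libraries, which may be technical.

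The labels and the sort markers disagreed in 14 of the 27 libraries, and each library is therefore named by its label only. Ptprc was at 169 to 678.5 CPM and Pdpn at 0 to 1.01 CPM in the libraries labelled CD45 TG- replicate 4, gp38-high TG- replicate 2, gp38-low TG- replicate 1, FRC TG- replicates 3 and 4, and FRC TG+ replicates 2, 3 and 4. In the other 19, Ptprc was at 0.175 to 5.79 CPM and Pdpn at 51.1 to 218 CPM. Ccl21a was above 1000 CPM (2162 to 5685 CPM) in 7 of the 19, Msln was above 100 CPM (573 to 829.9 CPM) in 4, and 8 had neither. These classes come from measured genes and are not groups of the study, so values in them are descriptions with no test. Reads in genes numbered 8517844 to 25194443 a library, and a count of 0 allows a level of up to 0.119 to 0.352 CPM (3 counts, counting error only).

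All 30 genes had reads in each of the 8 Ptprc-high libraries, where they summed to 3279 to 6019 CPM (median 4380). In the other 19 libraries the sum was 95.7 to 474 CPM (median 293). The level of 27 of the 30 genes was higher in every one of the 8 than in any of the 19, as was that of 9.11% of the 25666 genes with at least 10 reads. Blnk, Cd24a and Ebf1 overlapped between the 8 and the 19. None of the 30 was lower in all 8 than in all 19, against 12.5% of all genes. In bulk RNA, fewer cells of a type and less RNA per cell cannot be told apart, so each level describes the RNA of a library and not a number of B cells.

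**Figure D1:**
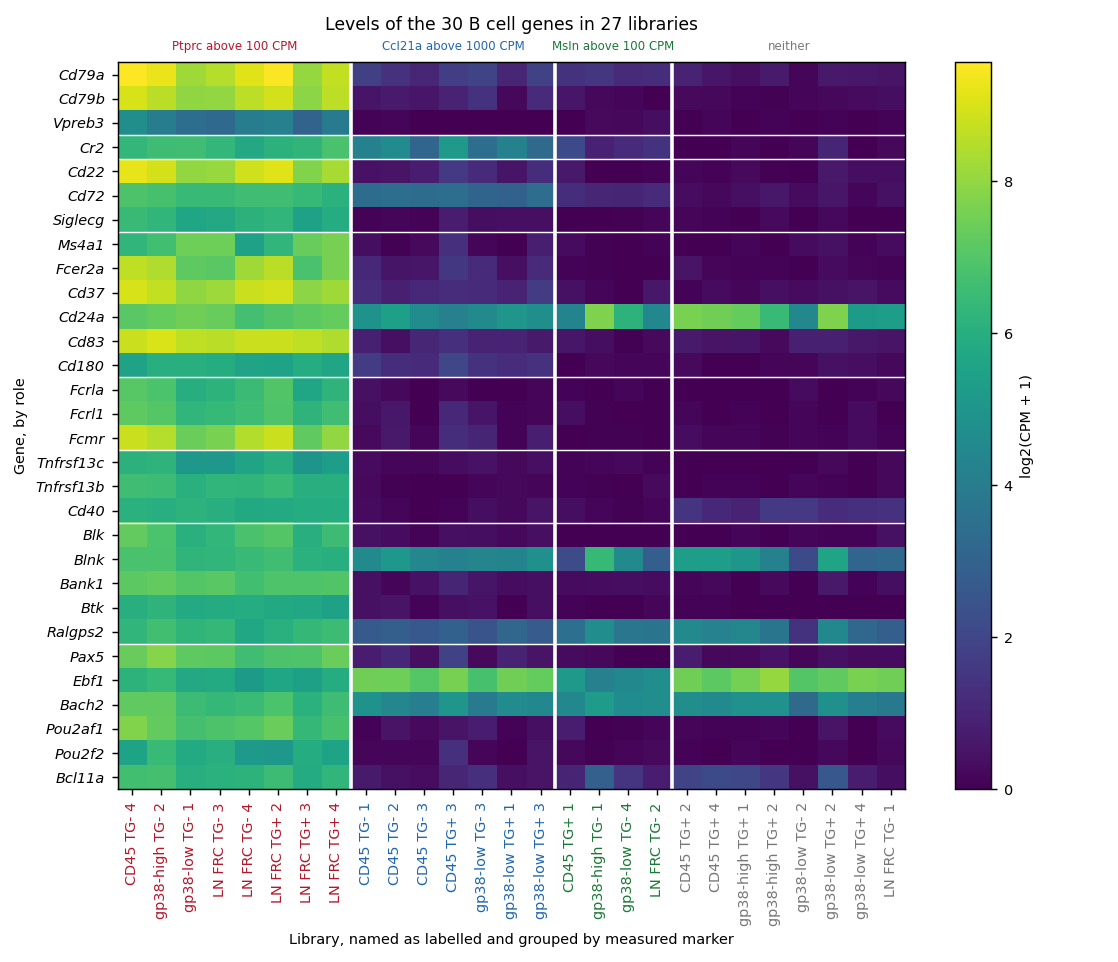
Levels of the 30 genes (rows, by role) in the 27 libraries (columns, named by label and grouped by the marker that is high), as log2(CPM + 1). The 8 Ptprc-high libraries carry all 30 genes, Ebf1 is present in all 27 libraries, and Cr2 and Cd72 are visible in the 7 Ccl21a-high libraries.

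Promoter sequence is shown for 5 genes that stand for the patterns described here. Cd79a is the most abundant of the 30 per length, Vpreb3 holds an octamer, Cr2 and Cd72 also had reads in Ccl21a-high stroma, and Ebf1 was higher in most stromal libraries than in the 8. The sequences are from RefSeq on GRCm38.p6 and cover up to 250 bases before a start, without the part in annotated exons. For Cd79a the window is chr7:24897247-24897380 (plus strand), for Vpreb3 chr10:75948050-75948299 (plus), for Cr2 chr1:195176720-195176969 (minus), for Cd72 chr4:43454629-43454876 (minus) and for the second of 2 listed Ebf1 starts chr11:44619978-44620227 (plus). The windows of Vpreb3 and Ebf1 lie inside the gene spans of GENCODE M21, outside its exons. Capitals mark an octamer (ATGCAAAT, or ATTTGCAT on the other strand), which POU2F2 binds with POU2AF1, or a PU box (GAGGAAGT, or ACTTCCTC on the other strand), a motif of the PU.1 and SPIB family.
Cd79a: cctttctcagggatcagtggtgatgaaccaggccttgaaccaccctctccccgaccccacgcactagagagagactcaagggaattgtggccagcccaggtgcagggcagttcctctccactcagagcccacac
Vpreb3: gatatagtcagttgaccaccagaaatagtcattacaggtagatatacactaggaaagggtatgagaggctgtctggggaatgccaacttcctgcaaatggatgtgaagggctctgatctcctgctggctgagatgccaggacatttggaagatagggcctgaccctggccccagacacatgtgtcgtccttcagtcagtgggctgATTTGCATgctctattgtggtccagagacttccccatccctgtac
Cr2: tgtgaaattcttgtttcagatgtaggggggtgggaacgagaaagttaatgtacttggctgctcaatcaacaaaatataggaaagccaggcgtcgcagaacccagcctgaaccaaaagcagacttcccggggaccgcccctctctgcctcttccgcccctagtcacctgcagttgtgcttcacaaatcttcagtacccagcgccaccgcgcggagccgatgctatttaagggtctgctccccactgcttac
Cd72: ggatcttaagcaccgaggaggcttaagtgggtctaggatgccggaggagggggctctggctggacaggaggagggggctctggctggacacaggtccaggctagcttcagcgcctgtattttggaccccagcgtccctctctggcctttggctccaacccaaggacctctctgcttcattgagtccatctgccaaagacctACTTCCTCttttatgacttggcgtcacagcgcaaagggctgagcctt
Ebf1: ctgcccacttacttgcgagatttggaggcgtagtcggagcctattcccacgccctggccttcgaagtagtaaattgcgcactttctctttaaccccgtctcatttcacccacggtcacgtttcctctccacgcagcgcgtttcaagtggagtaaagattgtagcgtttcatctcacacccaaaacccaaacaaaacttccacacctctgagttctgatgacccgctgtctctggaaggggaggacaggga

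RefSeq windows were matched for 24 of the 30 genes, and those of Cd40, Cd83, Blk, Ms4a1, Cd24a and Cd79b were not matched. In the full 250 bases, searched on both strands, the octamer was found for 2 of the 24 genes (Blnk and Vpreb3). It was in 2 of the 30 windows of the 24 genes and in 1.6% of the 32851 windows of all genes. A PU box was found for Cd37, Cd72 and Fcrl1, in 3 of the 30 windows, and in 2.44% of all windows. The core of the EBF1 motif (CCCNNGGG, its own reverse complement) was found for Bank1 and Cd22, in 2 of the 30 windows, and in 11.8% of all windows. A match is a description of letters only.

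The signalling chains of the receptor had the highest levels per length of the 30 genes. Cd79a (ENSMUSG00000003379.7, chromosome 7, 24897381 to 24902197, GRCm38) stood at 754 CPM in CD45 TG- replicate 4, 624 in gp38-high TG- replicate 2, 290.1 in gp38-low TG- replicate 1, 363 and 549 in FRC TG- replicates 3 and 4, and 725, 267 and 410.3 in FRC TG+ replicates 2, 3 and 4. Cd79b (ENSMUSG00000040592.11, chromosome 11, 106311341 to 106314762) stood, in that order of libraries, at 510.4, 378, 253, 257, 386.5, 478, 236 and 389.7 CPM. Both chains were highest in CD45 TG- replicate 4 and lowest in FRC TG+ replicate 3, and the ratio of Cd79a to Cd79b stayed between 1.05 and 1.65. Per kilobase of exon, the median level over the 8 was 329 CPM for Cd79a and 267 CPM for Cd79b. In the other 19 libraries, Cd79a reached at most 2.92 CPM and Cd79b at most 1.65 CPM. Vpreb3, a relative of the surrogate light chain, stood at 7.16 to 25.1 CPM in the 8 (median 14.5) and was at 0 in 10 of the 19.

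Among the coreceptor and inhibitory receptors, Cd22 had the highest level per length (median 77.0 CPM per kilobase in the 8). Cd22, which recruits phosphatases to the receptor, stood at 216 to 595 CPM in the 8 (median 388) and at no more than 2.07 CPM in the 19. Cd72, an inhibitory lectin-like receptor, stood at 67.5 to 118.7 CPM (median 93.0), and Siglecg, a sialic acid receptor, at 43.6 to 86.4 CPM (median 64.9). Cr2, which encodes the complement receptors CD21 and CD35, stood at 79.8, 95.4, 99.1, 78.5, 54.2, 69.2, 75.7 and 112 CPM in the same order of libraries. Its order differed from that of Cd79a: FRC TG+ replicate 4 was highest and FRC TG- replicate 4 lowest.

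The other surface proteins and the Fc receptor family were also at or near 0 outside the 8 libraries, apart from Cd24a. Ms4a1, which encodes CD20, stood at 77.4, 101.2, 174.3, 174, 42.9, 77.0, 159.5 and 195.2 CPM, and Fcer2a, the low-affinity IgE receptor CD23, at 401.5, 344, 143.3, 138, 295.3, 377, 110.9 and 194.8 CPM. The 4 libraries highest for Fcer2a were the 4 lowest for Ms4a1. Cd83, an activation marker, stood at 342 to 523 CPM (median 419.7), the tetraspanin gene Cd37 at 237 to 503 CPM (median 351.5) and Cd180, a Toll-like receptor relative, at 45.0 to 63.8 CPM (median 53.3). Fcmr, the Fc receptor for IgM, stood at 149 to 441 CPM (median 302) and was the third gene of the 30 per length (174 CPM per kilobase). Fcrl1 stood at 73.3 to 144 CPM (median 96.6) and Fcrla at 48.4 to 133 CPM (median 82.2). In the 19 libraries, Fcrla was at 0 in 10 and Fcrl1 at 0 in 7. Cd24a, a sialoglycoprotein found on many cell types, stood at 137, 156, 177.5, 162, 103.3, 124, 142.5 and 157 CPM in the 8, highest in gp38-low TG- replicate 1 and lowest in FRC TG- replicate 4.

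Receptors of the TNF family had their reads in the 8 libraries, and the gene of the ligand BAFF had most of its reads in the stromal ones. Tnfrsf13c, the BAFF receptor that mature B cells need to survive, stood at 70.4, 73.6, 33.1, 32.9, 46.98, 61.9, 29.9 and 40.5 CPM. Tnfrsf13b, the receptor TACI, stood at 98.0, 93.0, 66.4, 78.3, 75.8, 86.4, 62.1 and 64.9 CPM. Cd40, the receptor for T cell help, stood at 67.9, 64.4, 71.0, 64.8, 55.3, 56.7, 59.6 and 60.1 CPM. Cd40 varied least of the 30 over the 8 libraries (coefficient of variation 8.78%), and Fcer2a varied most (46.8%). The BAFF gene Tnfsf13b was at 0.354 to 5.52 CPM in the 8, 119 to 182 CPM in the 7 Ccl21a-high libraries, 14.3 to 26.5 CPM in the 4 Msln-high libraries and 11.8 to 20.6 CPM in the remaining 8. Cd40lg, the ligand of CD40 and a T cell gene, was at 4.61 to 10.3 CPM in the 8 and at no more than 0.0788 CPM elsewhere. Sema4d, a ligand of CD72, was at 273 to 626 CPM in the 8. C4b was at 53.8 to 769.6 CPM in the 8, at 5399 to 7503 CPM in the Ccl21a-high, 499 to 1098 CPM in the Msln-high and 348 to 1019 CPM in the remaining libraries. C3, whose fragments CD21 binds, was at 55.4 to 269.9 CPM in the 8, at 28891 to 36555 CPM in the Ccl21a-high, 12102 to 26035 CPM in the Msln-high and 5071 to 12988 CPM in the remaining libraries.

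Kinases and adaptors of the receptor were of moderate level in the 8. Bank1, an adaptor, stood at 101.7 to 153.6 CPM (median 127), the Src family kinase gene Blk at 63.6 to 151 CPM (median 102.1) and Btk at 42.9 to 72.8 CPM (median 56.8). These 3 genes did not exceed 1.005 CPM in the 19. Blnk, the adaptor that links SYK to BTK, stood at 111.9, 111.9, 75.3, 77.1, 88.7, 97.5, 68.6 and 64.7 CPM, and Ralgps2, an exchange factor for Ral, at 77.4, 101.7, 74.9, 81.3, 50.3, 66.5, 81.1 and 92.6 CPM. Both had reads in every one of the 19.

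Of the transcription factor genes, Pax5 and Pou2af1 were near 0 outside the 8 and Ebf1 was not. Pax5 stood at 161, 227, 145, 141, 98.9, 117, 119 and 166 CPM in the 8 and at no more than 2.60 CPM in the 19. Pou2af1, the octamer coactivator, stood at 81.6 to 216 CPM (median 123), and Pou2f2, its partner, at 32.9 to 87.6 CPM (median 51.5). Bach2, a repressor of plasma cell fate, stood at 149.5, 149.9, 93.7, 82.1, 90.4, 115.4, 67.7 and 95.0 CPM. Bcl11a, a factor of early B cell development, stood at 101.3, 106.8, 63.1, 67.2, 72.2, 92.3, 58.6 and 77.7 CPM. These 2 were highest in CD45 TG- replicate 4 and gp38-high TG- replicate 2 and lowest in FRC TG+ replicate 3. Ebf1 (ENSMUSG00000057098.14, chromosome 11, 44617317 to 45008091) stood at 70.6, 83.8, 53.4, 56.8, 36.2, 47.6, 42.4 and 60.2 CPM in the 8. The lowest medians per kilobase of the 30 were those of Ebf1 (5.65 CPM) and Bcl11a (5.69 CPM).

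A median in the 19 libraries above 10% of the median in the 8 was reached by 5 of the 30 genes. Ebf1 was at 281% (median 154.7 CPM in the 19), Blnk at 24.9%, Bach2 at 24.6%, Cd24a at 24.3% and Ralgps2 at 10.4%. The next genes were well below the 10% line over the 19: Cr2 (1.6%), Bcl11a (1.31%) and Cd72 (1.13%). The median share over the 30 genes was 0.14%. Within the Ccl21a-high libraries alone, the median of Cr2 was at 21.7%, that of Cd72 at 10.04% and that of Ralgps2 at 7.22% of the median in the 8. With the abundant transcript Gm26917 left out of the totals, Ralgps2 was at 8.22% and 4 genes remained above the line. Taking the highest of the 19 libraries in place of their median added Cr2 and Cd72. The ratio of summed Cd79a to summed Ptprc was 1.10 in the 8, 0.711 in the Ccl21a-high, 3.13 in the Msln-high and 0.686 in the remaining libraries, and single libraries of the 19 ran from 0.167 to 8.

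**Figure D2:**
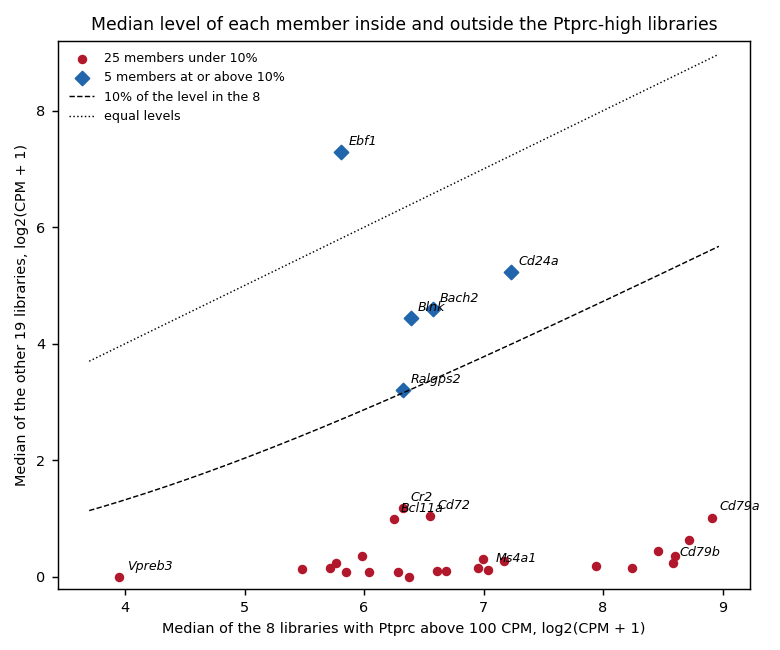
Median of each of the 30 genes in the 8 Ptprc-high libraries (x axis) and in the other 19 (y axis), both as log2(CPM + 1), with the lines of equal level (dotted) and of 10% of the level in the 8 (dashed). Ebf1 lies above the dotted line, Cd24a, Blnk, Bach2 and Ralgps2 lie on or above the dashed line, and the other 25 genes lie below it.

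Ebf1 was present in each class of stroma and lowest in the Msln-high one. It stood at 177, 171.7, 129.9, 193, 110.2, 180.3 and 154.7 CPM in the 7 Ccl21a-high libraries, and at 126.5 to 260.7 CPM (median 179) in the remaining 8. In the 4 Msln-high libraries it stood at 35.5, 16.8, 21.3 and 24.8 CPM, lower than in every other library of the 19. Ebf1 was the only gene of the 30 lower in all 4 Msln-high libraries than in the other 15, as were 1.79% of the 24123 genes with at least 10 reads in the 19. None of the 30 was higher in all 4, against 10.5% of all genes. Reads on the strand opposite to Ebf1 were 0.682% of its reads in the 19.

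The 7 Ccl21a-high libraries had 4 of the 30 genes, Cr2, Cd72, Cd37 and Cd180, above all 12 other libraries of the 19, against 4.96% of all genes. None was below all 12, against 7.15%. Cr2 (ENSMUSG00000026616.15, chromosome 1, 195136811 to 195176716) stood at 17.5, 23.7, 7.60, 34.0, 9.96, 17.2 and 8.95 CPM in these 7, labelled CD45 TG- replicates 1, 2 and 3, CD45 TG+ replicate 3, gp38-low TG- replicate 3 and gp38-low TG+ replicates 1 and 3. It was at 0.861 to 3.45 CPM in the 4 Msln-high libraries and at 0 to 1.01 CPM in the remaining 8. The ratio of Cr2 to Cd79b was 0.14 to 0.392 in the 8 and 6.06 to 109 in the 7, so no library of the 7 reached down to the ratios of the 8. Cd79b was only at 0.158 to 1.65 CPM in the 7, so their ratios rest on few Cd79b reads. High ratios were not particular to the 7: they were 6 to 12 in the 3 Msln-high libraries with Cd79b reads. In the remaining 8 they were 0 to 7. No annotated gene overlaps Cr2, yet 11.2% of its reads in the 19 were on the opposite strand, against 0.272% in the 8. With unstranded counts its median share in the 19 was 2.999% of that in the 8, in place of 1.6%. CD21 is also a known protein of follicular dendritic cells, the stroma that shows antigen to B cells, and the summed level of a 6-gene list of such cells was 11028 to 15342 CPM in the 7, 1899 to 4165 CPM in the Msln-high libraries, 995 to 4002 CPM in the remaining 8 and 45.3 to 195 CPM in the Ptprc-high 8. In that list Cxcl13, which attracts B cells, was at 227.5 to 448 CPM and Madcam1 at 22.9 to 37.7 CPM in the 7. The sum was led there by Clu (4197 to 7469 CPM), Mfge8 (4437 to 6057 CPM) and Enpp2 (1432 to 2540 CPM). In the remaining 8 these were at 406 to 3442, 287 to 423 and 130 to 225 CPM. Pericyte and smooth muscle genes summed to 2293 to 3865 CPM in the 7 and to no more than 319 CPM in the other 12. The part of follicular dendritic cells in the Cr2 reads was not tested.

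Cd72, Cd180 and Cd37 were the other 3 genes higher in the same 7 libraries, and each overlaps a gene on the opposite strand. Their medians in the 7 were 10.04%, 2.93% and 0.364% of those in the 8, and that of Ptprc was 0.551%. Cd72 stood at 6.86 to 9.96 CPM in the 7 and at no more than 1.41 CPM in the other 12. Over the 19, 86.9% of the reads on Cd72 were on the opposite strand, where Tesk1 lies, against 24.1% in the 8. Cd180 stood at 1.21 to 3.07 CPM in the 7, with 88.2% of its reads in the 19 on the strand of Mast4, and Cd37 at 0.774 to 2.19 CPM, with 42.7% on the strand of Tead2. The counts used here are of the genes' own strand, and how far reads of the opposite strand enter them was not tested. Ly86, whose protein pairs with CD180, was at 1.14 to 1.71 CPM in the 7 and at no more than 0.217 CPM in the other 12.

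In the remaining 8 libraries, Cd40 alone of the 30 was higher than in the other 11 of the 19, against 2.79% of all genes. It stood at 0.945 to 2.10 CPM (median 1.497) there and at no more than 0.416 CPM in the 11. Cd79a and Cd72 were lower in all 8 than in all 11, against 2.17% of all genes. Ptprc was at 0.238 to 1.73 CPM in these 8, at 1.28 to 5.79 CPM in the Ccl21a-high and at 0.175 to 1.13 CPM in the Msln-high libraries. The part of leukocyte RNA in the Cd40 reads was not tested, and 1 gene of 30 (3.33%) is near the background share.

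**Figure D3:**
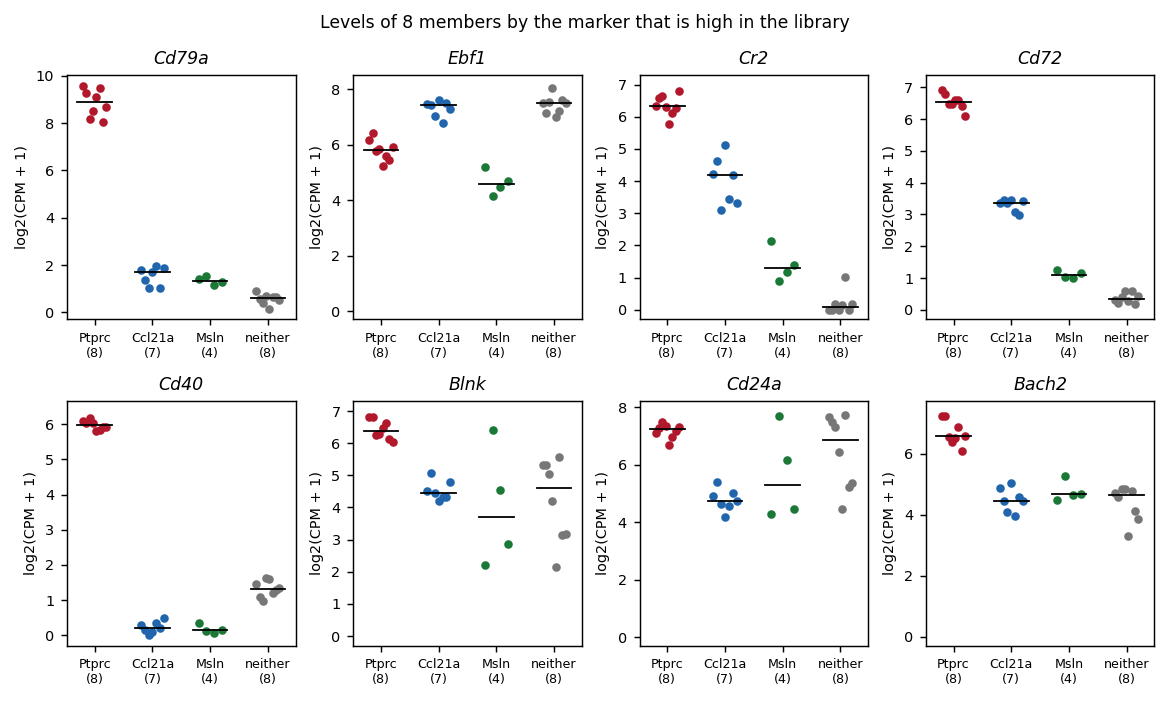
Levels of 8 of the genes as log2(CPM + 1), 1 point a library and a bar at the median, by the marker that is high in the library (Ptprc, Ccl21a, Msln or neither, with the number of libraries). Cr2 and Cd72 come next after the Ptprc-high libraries in the Ccl21a-high ones, Cd40 in those with neither marker, Ebf1 is lowest in the Msln-high ones, and Blnk and Cd24a are spread widely in the last 2 classes.

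Cd24a and Blnk varied widely within the Msln-high and remaining classes. Cd24a stood at 199.7, 179, 158.6, 85.3, 20.98, 211.1, 36.4 and 39.8 CPM in the remaining 8, labelled CD45 TG+ replicates 2 and 4, gp38-high TG+ replicates 1 and 2, gp38-low TG- replicate 2, gp38-low TG+ replicates 2 and 4, and FRC TG- replicate 1. Blnk stood at 39.3, 39.4, 32.2, 17.2, 3.46, 46.3, 7.75 and 8.05 CPM in the same libraries. The summed level of 5 epithelial genes was 1960, 1771, 1463, 794, 216, 1975, 409 and 451.5 CPM there, so the libraries high for Cd24a and Blnk were high for these genes. In the Msln-high libraries, gp38-high TG- replicate 1 was highest for Cd24a (209.5 CPM), Blnk (84.6 CPM), Ralgps2 (25.02 CPM), Bcl11a (6.65 CPM) and the epithelial sum (3073 CPM). The Ccl21a-high libraries had an epithelial sum of 4.73 to 47.2 CPM, Cd24a at 17.1 to 41.1 CPM and Blnk at 17.4 to 32.8 CPM. The part of epithelial cells in these levels was not tested. Bach2 varied less, at 8.82 to 38.0 CPM over the 19.

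Within the 8 Ptprc-high libraries, the genes did not all follow one order. The 4 libraries with under 56% of reads unmapped, CD45 TG- replicate 4, gp38-high TG- replicate 2, FRC TG- replicate 4 and FRC TG+ replicate 2, were higher than the other 4 for 14 of the 30 genes, against 13.9% of the 18635 genes with at least 10 reads. Ms4a1 was lower in all 4, against 11.4% of all genes. This split was chosen after the values were seen and carries no test. Cd79a had medians of 674.5 CPM in the 4 and 326 CPM in the other 4, and Ms4a1 had 77.2 and 174 CPM. The 14 genes include Fcer2a, Cd22, Cd37, Fcmr, Cd83, Pou2af1 and Tnfrsf13c. Ptprc was at 169 to 451 CPM in the 4 and at 568 to 678.5 CPM in the other 4, and the ratio of Ms4a1 to Ptprc stayed between 0.224 and 0.343 over the 8 while that of Cd79a to Ptprc ran from 0.426 to 3.25.

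Base composition moved with the same split. The median GC content of the longest transcript was 54.3% over the genes higher in the 4 libraries, 42.2% over those lower and 49.6% over all genes. For the 14 of the 30 that were higher it was 52.1%, for the 15 in no order 46.0%, and for Ms4a1 40.6%. T cell genes summed to 1965 to 2749 CPM in the 4 and 1313 to 1929 CPM in the other 4, and plasma cell genes to 335 to 560.2 CPM and 644 to 1663 CPM. The part of base composition, mapping or cell content in the order of the genes was not tested.

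**Figure D4:**
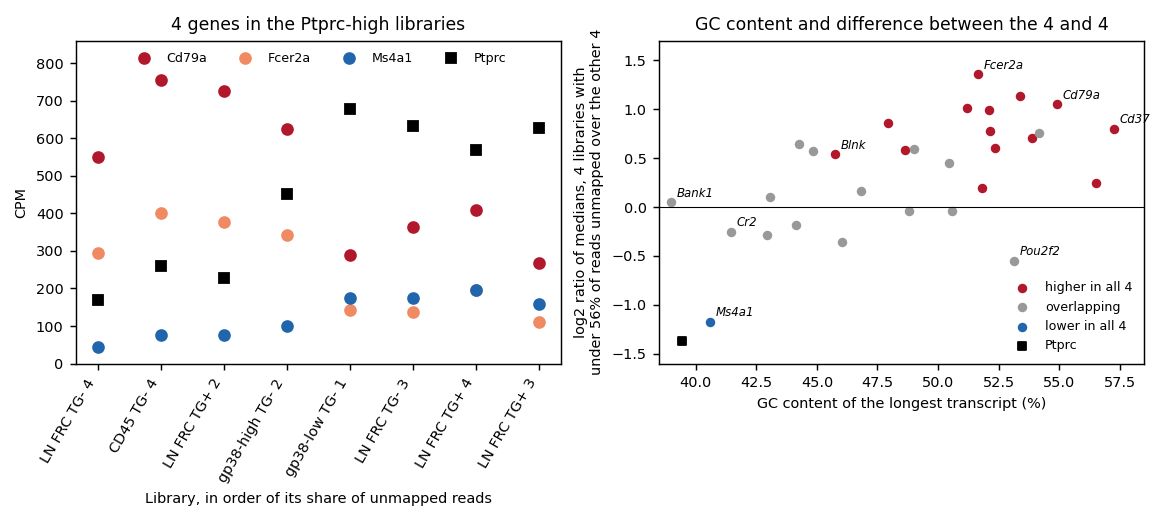
Left, CPM of Cd79a, Fcer2a, Ms4a1 and Ptprc in the 8 Ptprc-high libraries in order of their share of unmapped reads. Right, GC content of the longest transcript against the log2 ratio of medians between the 4 libraries with under 56% of reads unmapped and the other 4, 1 point for each of the 30 genes and Ptprc. Cd79a and Fcer2a are higher in the 4, Ms4a1 and Ptprc are lower, and both of the latter have low GC content.

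The genotype separated almost none of the 30 within the 8 libraries. Over the 3 TG+ and 5 TG- libraries, none was higher in all TG+ libraries, against 0.585% of all genes. Btk was lower in all 3 (42.9 to 55.7 CPM, against 56.1 to 72.8 CPM), as were 2.44% of all genes. That order of Btk was lost with Gm26917 left out of the totals and with TMM library sizes. All 3 TG+ libraries and 2 of the 5 TG- libraries are labelled FRC, and the other 3 TG- libraries carry islet labels.

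Other B cell genes were read from a list of 47 that holds none of the 30. Their median share in the 19 libraries was 2.88% of the level in the 8, and 16 of the 47 were above 10%. Cd74, the invariant chain of antigen presentation, was at 3931 to 8734 CPM in the 8, Syk at 419.8 to 692 CPM and Ets1 at 392 to 751 CPM. Spib and Irf8, transcription factors of B cells and other lineages, were at 182.5 to 245.7 CPM and 204.5 to 228 CPM in the Ccl21a-high libraries and at 114 to 349 CPM and 285 to 464 CPM in the 8. The levels of Spib overlapped between these classes and those of Irf8 did not. Prkcb, the kinase below BTK, was at 34.2 to 101.2 CPM in the Ccl21a-high libraries and at 0.112 to 1.01 CPM in the remaining 8.

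Markers of the stage of B cell life were read beside the 30. The recombinase gene Rag2 was at 0 in all 8 Ptprc-high libraries and Rag1 at 0 to 0.247 CPM. Of early B cell genes, Il7r was at 14.4 to 44.8 CPM, Dntt at 0.345 to 2.26 CPM and Vpreb1 at 0 to 0.354 CPM. Of germinal centre genes, Bcl6 was at 52.1 to 83.1 CPM, Mki67 at 15.2 to 115.5 CPM and S1pr2 at 23.4 to 41.4 CPM. Of plasma cell genes, Jchain was at 82.3 to 1214 CPM, Xbp1 at 113 to 216 CPM and Mzb1 at 82.2 to 143.6 CPM. Dtx1 (63.5 to 216 CPM), Cd5 (62.5 to 151.3 CPM) and Plac8 (41.8 to 80.7 CPM) led the B-1 and marginal zone genes, and Cd5 is also in the T cell list. Zbtb20, Cd9 and S1pr3, the others of these genes, had medians of 26.0, 22.6 and 9.11 CPM in the 8. In the 19 their medians were higher, at 475.6, 109.7 and 31.5 CPM. The B-1 and marginal zone list summed to 262 to 457 CPM in the 8 and to 465 to 1247 CPM in the 19. The 8 libraries also held T cell genes (1313 to 2749 CPM summed over 16 genes, led by Lck, Cd3e and Tcf7) and macrophage and monocyte genes (1544 to 9293 CPM over 10, led by Lyz2, Csf1r and C1qa). Dendritic cell genes (led by Itgax, Flt3 and Zbtb46) summed to 149 to 343 CPM, NK cell genes (Nkg7, Eomes and Gzma) to 28.8 to 121 CPM and pancreatic acinar genes (Ctrb1, Cel and Cpa1) to 209.5 to 2906 CPM. Fibroblast genes (Col3a1, Col1a1 and Col1a2) summed to 26.0 to 116.5 CPM in the 8 and to 12882 to 42012 CPM in the 19. Beta cell genes (Ins2, Ins1 and Iapp) summed to 2.65 to 158.7 CPM and endothelial genes (Pecam1, Cdh5 and Kdr) to 61.0 to 158 CPM in the 8. Most of the endothelial sum was Pecam1 (51.2 to 150.3 CPM). Cdh5 was at 1.96 to 5.83 CPM, Kdr at 1.49 to 9.13 CPM, Tek at 0.162 to 0.870 CPM and Emcn at 0 to 0.544 CPM. Pericyte (Notch3, Acta2 and Tagln), epithelial (Cdh1, Epcam and Krt8) and mesothelial genes (Upk3b, Krt19 and Lrrn4) each summed to no more than 29.2 CPM in the 8. No group was labelled as a sort of B cells.

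Between the labelled groups, no gene of the 30 and no gene at all passed a false discovery rate of 0.05 in edgeR's quasi-likelihood test, in any of 6 comparisons, some of which share libraries. In the islet libraries labelled CD45, TG+ against TG-, 13 of the 30 passed the filter on low counts and 0% of 14871 genes were called. Of these libraries, only TG- replicate 4 was Ptprc-high. Cd79a stood at 2.47, 1.55, 1.02 and 754 CPM in TG- and at 1.62, 0.865, 2.31 and 0.489 CPM in TG+, a log2 difference of -7.66 (SE 2.63, edgeR adjusted p = 0.506). The difference lies in TG- replicate 4, and without it the value was -0.45. Unadjusted p was under 0.05 for 5 of the 13 and for 1402 of all genes, DESeq2 called 0 of the 30 and 667 genes, and limma-voom with sample weights called 8 and 6184. Without TG+ replicate 3, edgeR called 519 genes.

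In the islet libraries labelled gp38-low, TG+ against TG-, 12 of the 30 were tested and 0% of 14095 genes were called. The median log2 difference of the 12 was -2.31, against -0.01 over all genes, and was 0.43 without TG- replicate 1. DESeq2, which fitted all 30, gave a median of -6.33. Unadjusted p was under 0.05 for 2 of the 12 (16.7%) and 273 genes (1.94%), and neither DESeq2 nor limma-voom called any gene (0 and 0). In the islet libraries labelled gp38-high, all 30 were tested and 0% of 17937 genes were called. Unadjusted p was under 0.05 for 9 of the 30 and 920 genes, DESeq2 called 0 of the 30 and 31 genes, and limma-voom called 0. The median log2 difference of the 30 was -9.75, against -0.20 over all genes, and -0.08 without TG- replicate 2, the Ptprc-high library of this group.

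In the libraries labelled FRC, TG+ against TG-, all 30 were tested and 0% of 13819 genes were called. The median log2 difference was 1.08, with 29 of 30 higher in TG+. Over the 5 Ptprc-high FRC libraries alone the median was 0.15. No gene of the 30 had an unadjusted p under 0.05 (0 of 30, and 981 of all genes, 7.10%). DESeq2 called 0 of the 30 and 913 of 28178 genes, and limma-voom called 0. In islet CD45 against islet gp38, 0% of 18810 genes were called. The median was 0.39, and it was -2.90 without CD45 TG- replicate 4. Unadjusted p was under 0.05 for 0 of the 30 and 393 genes (2.09%). DESeq2 called 0 of the 30 and 12 of 32807 genes, and limma-voom 0 and 0.

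Libraries labelled FRC against those labelled islet gp38-low gave the highest median of the 6 comparisons, 5.04 on the log2 scale against -0.15 over all genes. Of the 30 genes, 29 were higher in the libraries labelled FRC, and 0% of 18396 genes were called. Cd79a had a log2 difference of 5.36 (SE 1.73, edgeR adjusted p = 0.0943). Ebf1 was the gene that was lower, at -0.82 (SE 0.53, edgeR adjusted p = 0.256). Unadjusted p was under 0.05 for 25 of the 30 (83.3%) and 6639 genes (36.1%). DESeq2 called 25 of the 30 and 4596 of 32382 genes, and limma-voom called 30 and 8651 of 18396. The median was 7.16 with limma-voom, and with 1 library left out it ran from 4.68 to 8.52, the latter without gp38-low TG- replicate 1. Without that library, edgeR called 27 of the 30 and 5403 genes, and without FRC TG- replicate 1 it called 1 and 1369. Of the 7 FRC libraries 5 are Ptprc-high, and of the 8 gp38-low libraries 1 is. Of the 47 other B cell genes, none of those tested was called in the 6 comparisons, and their median was 2.95 in this one, with 45 of 47 higher.

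**Figure D5:**
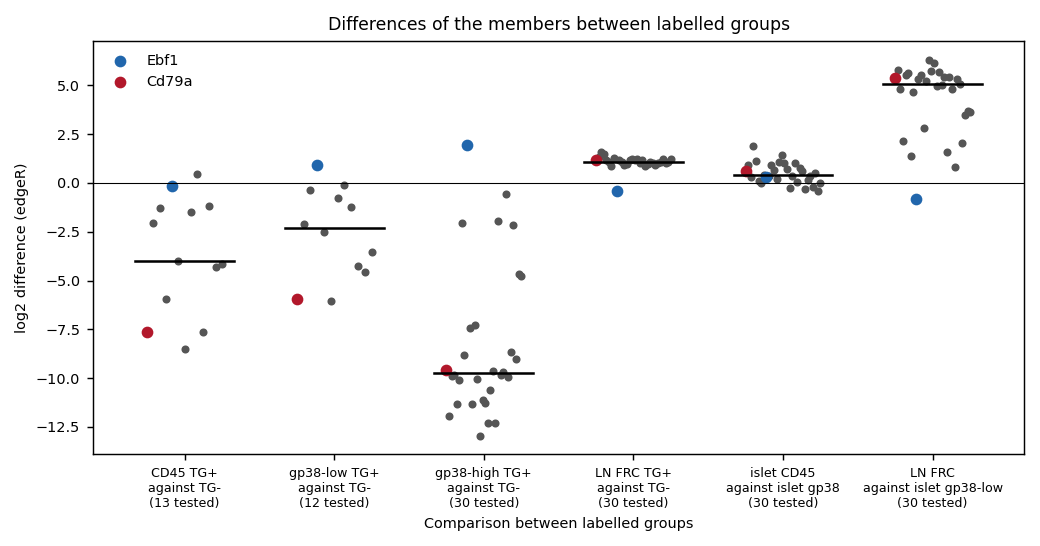
log2 differences (edgeR) of the tested genes of the 30 in the 6 comparisons between labelled groups, 1 point a gene and a bar at the median, with Ebf1 and Cd79a in colour. The medians run from -9.75 (gp38-high, TG+ against TG-) to 5.04 (libraries labelled FRC against gp38-low), and none of the points passed the threshold.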

How the data were processed

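Total RNA of sorted cells was sequenced after ribosomal RNA depletion. Per the submitters' processing notes, the tools were bcl2fastq 2.17, Trim Galore 0.4.3 and STAR 2.5.2a on mm10. The authors deposited 1 table of raw read counts per gene for each library, with unstranded, forward and reverse columns, and no label or header names the annotation release. Of 54446 identifiers, 54409 matched GENCODE M21. The reverse-strand counts were used, because the forward column held 6.67% to 15.3% of reads on both strands. The 4 lines that name no gene were left out: 19.4% to 67.7% of reads were unmapped, 4.98% to 7.28% mapped to several places, 5.85% to 26.1% lay in no gene and 0.31% to 0.66% were ambiguous. CPM was computed on all reads in genes. The transcript Gm26917 took 5.31% to 36.0% of them.

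Labelled groups were compared in 6 fits with edgeR 4.0.16 (TMM, filterByExpr, quasi-likelihood test, Benjamini-Hochberg false discovery rate of 0.05) in R 4.3.3. The gp38-high fit also held the gp38-low libraries, and the fit of libraries labelled FRC against gp38-low also held the gp38-high libraries. The other fits held only the libraries of the groups compared. The test was checked on simulated counts. DESeq2 1.42.0, limma-voom (limma 3.58.1), other size factors, no filter, unstranded counts, Gm26917 left out, 1 fit of all libraries, the replicate block and fits that dropped 1 library at a time were alternatives. Values were described for all 30 genes, for the 3 most abundant genes of each marker list and for genes a result turns on, and a few genes of these lists are not reported here. Individual values are printed for the receptor chains, Ms4a1, Cr2, Fcer2a, Pax5, Ebf1, Tnfrsf13c, Tnfrsf13b, Cd24a, Bcl11a, Cd40 and the genes above the 10% line, and groups of over 5 libraries are otherwise given by range. The genes and lists were chosen with earlier results of these data known.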

Additional observations from a re-analysis of the deposited data

Results flagged for a closer look

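The summed level of the 30 genes stood far from the rest of its labelled group in 3 libraries. CD45 TG- replicate 4 had 6019 CPM, and the other 3 libraries of its group had 220.4 to 316.5 CPM. The library labelled gp38-low TG- replicate 1 had 3643 CPM, and the other 3 had 159 to 206 CPM. In gp38-low TG+ replicate 2 the sum was 465.7 CPM, and in the other 3 it was 269 to 293 CPM. The first 2 of these are Ptprc-high, and 28 and 26 of the 30 genes stood apart in them taken singly. In gp38-low TG+ replicate 2, 4 genes stood apart (Vpreb3, Cd24a, Ralgps2 and Bcl11a). In CD45 TG+ replicate 3, 9 genes did, Cr2 and Cd72 among them. For gp38-low TG+ replicate 3 it was 3 (Cd79b, Fcer2a and Btk), and for CD45 TG+ replicate 4 it was 1 (Vpreb3). Some flags rest on very few reads. Vpreb3 had 0.0719 CPM (gp38-low TG+ replicate 2) and 0.109 CPM (CD45 TG+ replicate 4). Both values are under the level that a count of 0 allows there, 0.216 and 0.163 CPM. The Btk value, 0.312 CPM, equals that limit in its library. Levels this low cannot be told from 0. Chance alone puts a library apart in about 1 in 20 groups for a single value. That rate does not apply to the counts of genes, since 30 genes were taken singly in each group. The causes were not tested.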

How the results depend on the processing

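The tool decided how many genes were called. In libraries labelled CD45 (TG+ against TG-), DESeq2 called 667 of 29827 genes. With limma-voom it was 6184 of 14871, among them 8 of the 13 genes tested of the 30. Leaving out 1 library gave 0 to 519 genes with edgeR. DESeq2 called 31 of 31215 genes in libraries labelled gp38-high, 913 of 28178 in those labelled FRC and 12 of 32807 in CD45 against gp38. In libraries labelled FRC against those labelled gp38-low, DESeq2 called 25 of the 30 and 4596 of 32382 genes, and limma-voom 30 and 8651 of 18396. Leaving out 1 library there gave 0 to 27 and 0 to 5403 with edgeR. The median of the 30 reversed to 0.24 with limma-voom in libraries labelled gp38-low (-4.36 to 0.43 with 1 library left out). In CD45 against gp38 it was -0.62 with limma-voom and -1.02 with the replicate block (-2.90 to 2.89 with 1 library left out, and -0.07 without CD45 TG+ replicate 3), and Cd79a was at -0.81 and -1.02 (-2.93 to 2.6). In libraries labelled FRC, Ebf1 reversed to 0.24 with limma-voom, 0.65 with the replicate block and 0.26 over the 5 Ptprc-high libraries. With 1 library left out it ran from -0.7 to 0.56 there, and from -0.45 to 0.14 in those labelled CD45. The causes were not tested. In libraries labelled gp38-high, leaving out 1 library leaves an arm of 1, assumed to vary like the other groups of the fit. The replicate block called 0 genes in each comparison. Same-numbered TG- and TG+ libraries of a label correlated at -0.15 to 0.62. Same-numbered libraries of different labels within a genotype were not compared, so the check cannot decide whether the numbers pair libraries. Between classes of libraries, other totals and unstranded counts, chosen after seeing the data, kept all 27 genes higher in the Ptprc-high libraries, and TMM added Blnk. Of the 14 genes higher in the 4 libraries with fewer unmapped reads, 12 remained without Gm26917 and 13 with TMM. Depth limits levels under 0.119 to 0.352 CPM.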
